A study of Mus musculus with 9 samples.

Results

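Livers of mice carrying an inducible YAP transgene together with a liver knockout of Lsd1 (YAP_Lsd1ko, 3 libraries) were compared with wild-type livers (WT, 3 libraries), which took 6 of the 9 libraries of the series. The 6 libraries were chosen by their titles. Every mouse was C57BL/6 by label and had received AAV8-ApoE/ATT1-Cre by intraperitoneal injection, so WT mice also carried the Cre vector, and doxycycline at 30 mg per L for 14 days turned on the transgene. The genotype labels read YAP; Lsd1 KO and Wild type. The 3 libraries of the remaining group, labelled YAP transgenic (YAP), entered the fit, and their values are set beside the comparison. No group carried the Lsd1 knockout without the transgene, so an effect of the transgene and one of the knockout cannot be told apart in this comparison. Ages, the form of the transgene and the deleted part of Lsd1 are not given in the sources used here, and the labels do not tell if libraries of 1 group stem from different animals. All p-values therefore measure only the spread between these libraries, which may be technical.

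YAP is a transcriptional co-activator that works with the DNA-binding TEAD factors. The Hippo kinases phosphorylate it and keep it out of the nucleus, and in liver its activation is known for enlarging the organ and turning hepatocytes toward a biliary or progenitor state. LSD1, encoded by Kdm1a, removes methyl groups from lysine 4 of histone H3 within the CoREST and NuRD complexes. The title of the series links YAP to LSD1 through polyamines, whose synthesis begins with ornithine decarboxylase (Odc1), and through hypusine, a modified lysine of the translation factor eIF5A that is made from the polyamine spermidine.

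The measured quantity was the number of uniquely mapped reads crossing splice junctions, 6910297 to 9925154 per library. The library labelled YAP_Lsd1ko replicate 2 had the fewest unique reads. Multi-mapped reads numbered 2701326, 10158036 and 9203106 in YAP_Lsd1ko replicates 1 to 3. They ranged from 3403801 to 17283950 in WT and from 1307895 to 1322428 in YAP. For each gene, reads were summed over the annotated junctions that belong to it alone, and are given as CPM (the gene's share of the library's reads after TMM scaling), with no correction for gene length. Y-linked Ddx3y was read in every library, and the defining hepatocyte gene Alb stood between 83663.8 and 186692.0 CPM in all 9 libraries. In each group replicate 3 lay close to a mixture of replicates 1 and 2. The best mixture took 47% of WT replicate 1 and left squared residuals of 1.34 times the sampling variance, and 81.0% of 2740 well-read genes lay between the other WT replicates. For YAP_Lsd1ko the best mixture was 50%, with residuals of 5.94 times the sampling variance, whereas replicates 1 and 2 fitted as mixtures of the others gave 27.8 to 38.9 times. Whether replicate 3 is an independent library was not tested, and every count of passing genes below rests on it. With every replicate 3 left out, edgeR passed 0 genes (smallest adjusted p = 0.0624, 481 genes at an unadjusted p under 0.05) and DESeq2 passed 49 that were higher and 26 that were lower.

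The knockout was checked on its own target. Kdm1a, on chromosome 4 from 136550540 to 136602723 (GRCm38), had 30.1, 38.3 and 31.3 CPM in WT and 15.8, 35.4 and 25.3 CPM in YAP_Lsd1ko replicates 1 to 3. The library labelled YAP_Lsd1ko replicate 2 thus lay within the WT range and went against its label, and the groups overlapped. Over all genes it also lay inside the WT span on the first principal component (57.1% of the variance), at -48.7 against -74.3 to -14.3 in WT and 31.9 and 1.41 in the other YAP_Lsd1ko libraries. The difference did not pass (log2 fold change -0.39, SE 0.26, edgeR adjusted p = 0.539). Without that library the difference was -0.69 (adjusted p = 0.0961), and at the most-read Kdm1a junction alone it was 0.0152. The sources used here do not give the deleted exons, so junctions outside the deleted part check nothing, and in whole liver the remaining Kdm1a reads cannot be assigned to a cell type.

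Yap1, the gene of the transgene (chromosome 9, 7931999 to 8004596), stood at 47.7, 35.2 and 30.4 CPM in YAP_Lsd1ko replicates 1 to 3 and at 19.8, 19.3 and 17.4 CPM in WT. All 3 YAP_Lsd1ko libraries, the one labelled replicate 2 included, lay above WT (2.003-fold, log2 fold change 1.002, SE 0.17, edgeR adjusted p = 0.0237). For the Yap1 level without WT replicate 1, 2 or 3 the adjusted p was 0.0540, 0.0694 and 0.140. The rise was uneven along the gene. The 3 junctions with most reads in YAP, picked by those values, held 117 reads in WT and 612 in YAP_Lsd1ko, whereas the other 6 held 263 and 285. Yap1 was also 1 of the 4 genes whose junction usage differed between the groups, as described below.

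**Figure D1:**
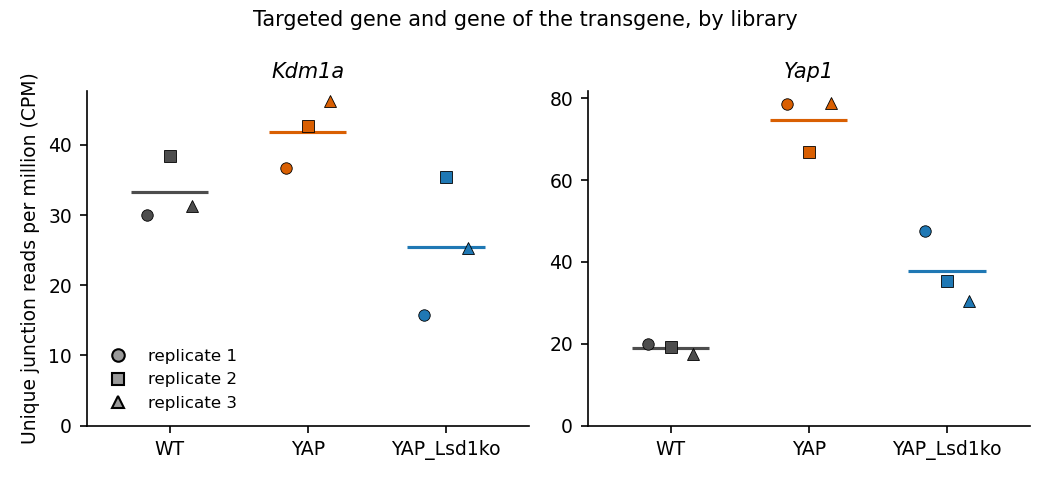
Kdm1a and Yap1 in CPM of unique junction reads (linear axis from 0) for each library of WT, YAP and YAP_Lsd1ko. Symbols mark replicate numbers and the bar is the group mean. The library labelled YAP_Lsd1ko replicate 2 has 35.4 CPM of Kdm1a, within the WT range of 30.1 to 38.3, and all YAP_Lsd1ko libraries have more Yap1 than any WT library.

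Genes that differed from wild type included 6 YAP targets among those that rose, and 5 pericentral and 6 sterol and fatty acid synthesis genes among those that fell. Of 10897 genes tested, 223 passed (2.05%, edgeR quasi-likelihood test with Benjamini-Hochberg adjustment, adjusted p under 0.05). Of these 122 rose (1.12%) and 101 fell (0.927%), and 86 and 61 changed at least 2-fold. Without the library labelled YAP_Lsd1ko replicate 2, 614 genes passed (5.52%), 386 higher (3.47%) and 228 lower (2.05%). The counts fell to 20 and 12 without WT replicate 3 and to 30 and 11 without YAP_Lsd1ko replicate 3. Counts of list members below follow these shifts over all genes, so each is to be read beside the all-gene value of its setting. The WT and YAP_Lsd1ko libraries did not overlap for 17.6% of all genes tested.

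**Figure D2:**
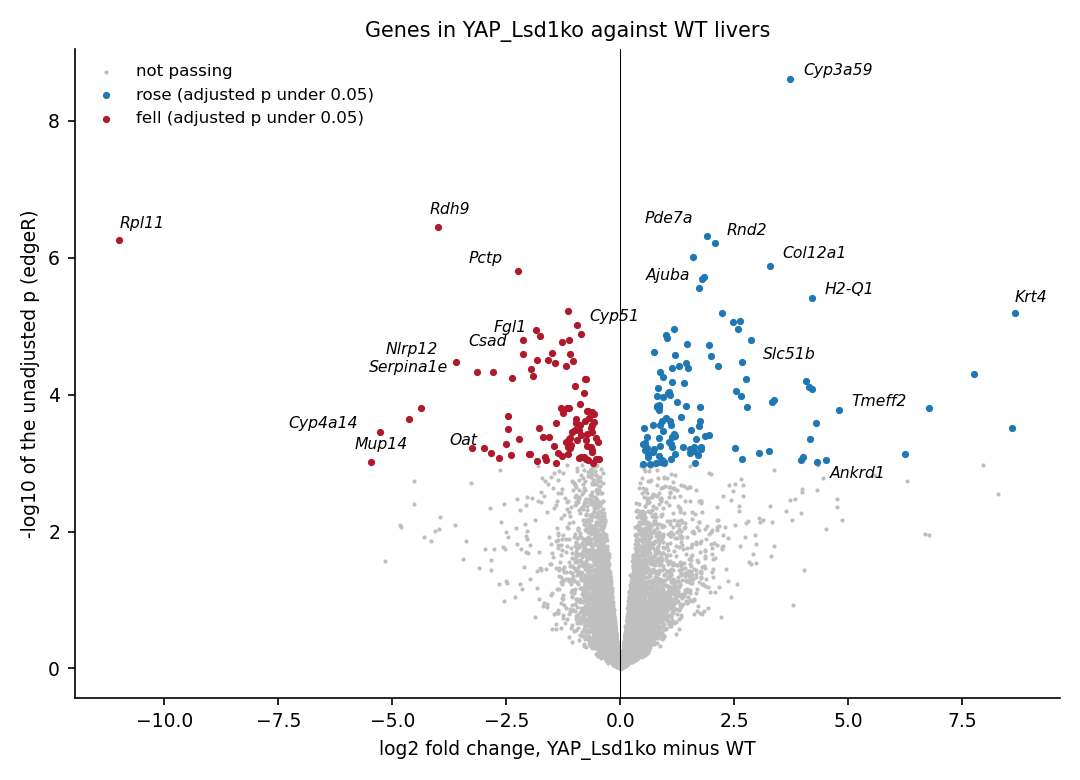
Each point is 1 of 10897 genes, placed by its log2 fold change between YAP_Lsd1ko and WT (x axis) and by -log10 of its unadjusted edgeR p (y axis). Blue points rose and red points fell at an adjusted p under 0.05. Cyp3a59 has the smallest p, and Rpl11, at the far left, had 0 uniquely mapped reads in YAP_Lsd1ko.

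YAP target genes stayed high in part. Of 37 listed targets 33 passed the filter on low counts, 2 others had no reads, and of the 33 tested 6 rose and 0 fell, against 1.12% and 0.927% of all genes. The list's median log2 difference was 0.41, beside -0.00099 for all genes. Those that rose were Ankrd1, Ccn1, Ajuba, Amotl2, Crim1 and Wwc1, several of which (Ajuba, Amotl2 and Wwc1) encode proteins that themselves act on the Hippo kinases or on YAP. Without the library labelled YAP_Lsd1ko replicate 2, 8 targets rose and the median was 0.66, whereas 1 rose without WT replicate 3 and 2 without YAP_Lsd1ko replicate 3. Over all genes 386, 20 and 30 rose in these settings.

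Ankrd1, a muscle ankyrin repeat protein used as a readout of YAP activity, stood at 0.163, 0.749 and 0.135 CPM in WT and at 10.9, 1.49 and 8.83 CPM in YAP_Lsd1ko replicates 1 to 3 (19.9-fold higher, log2 SE 0.89, adjusted p = 0.0487). The groups did not overlap, which was required of the genes named for the largest rises, Ankrd1 among them. The library labelled YAP_Lsd1ko replicate 2 lay nearest to WT. Ccn1, a secreted matricellular protein, rose from 2.44, 4.49 and 2.97 to 16.4, 9.26 and 10.02 CPM (3.59-fold, SE 0.34, adjusted p = 0.0323). Ajuba, a LIM-domain scaffold that inhibits LATS, rose from 6.18, 5.99 and 5.54 to 24.1, 16.0 and 18.6 CPM (3.32-fold, SE 0.17, adjusted p = 0.00275). For both genes all 3 YAP_Lsd1ko libraries lay well above the highest WT library. Amotl2, an angiomotin that holds YAP at cell junctions, stood at 6.83, 3.74 and 8.24 CPM in WT and at 26.6, 18.4 and 14.97 CPM in YAP_Lsd1ko (3.17-fold, SE 0.31, adjusted p = 0.0333). Crim1, a transmembrane protein that binds growth factors, rose 2.28-fold, from 23.1 ± 0.525 to 52.8 ± 6.23 CPM (SD, n = 3 libraries each, edgeR adjusted p = 0.00787). Wwc1, a scaffold upstream of LATS, rose 2.17-fold, from 48.5 ± 2.79 to 105 ± 25.8 CPM (SD, n = 3, edgeR adjusted p = 0.0263).

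The YAP libraries stood higher than YAP_Lsd1ko on average for all 6 genes, at 4.42, 10.7 and 8.15 CPM for Ankrd1 and at 27.5, 29.0 and 30.3 CPM for Ajuba, but 0 of these 6 differences between YAP_Lsd1ko and YAP passed (edgeR adjusted p 0.112 to 0.941). Ccn2, another classic YAP target, was at 0.488, 3.15 and 1.76 CPM in WT and at 6.64, 2.32 and 5.39 CPM in YAP_Lsd1ko, so the groups overlapped and the gene did not pass against WT (adjusted p = 0.299). In YAP it stood at 36.5, 17.9 and 19.5 CPM, above every YAP_Lsd1ko library, and the difference between YAP_Lsd1ko and YAP was just outside the threshold (log2 fold change -2.33, adjusted p = 0.0556).

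**Figure D3:**
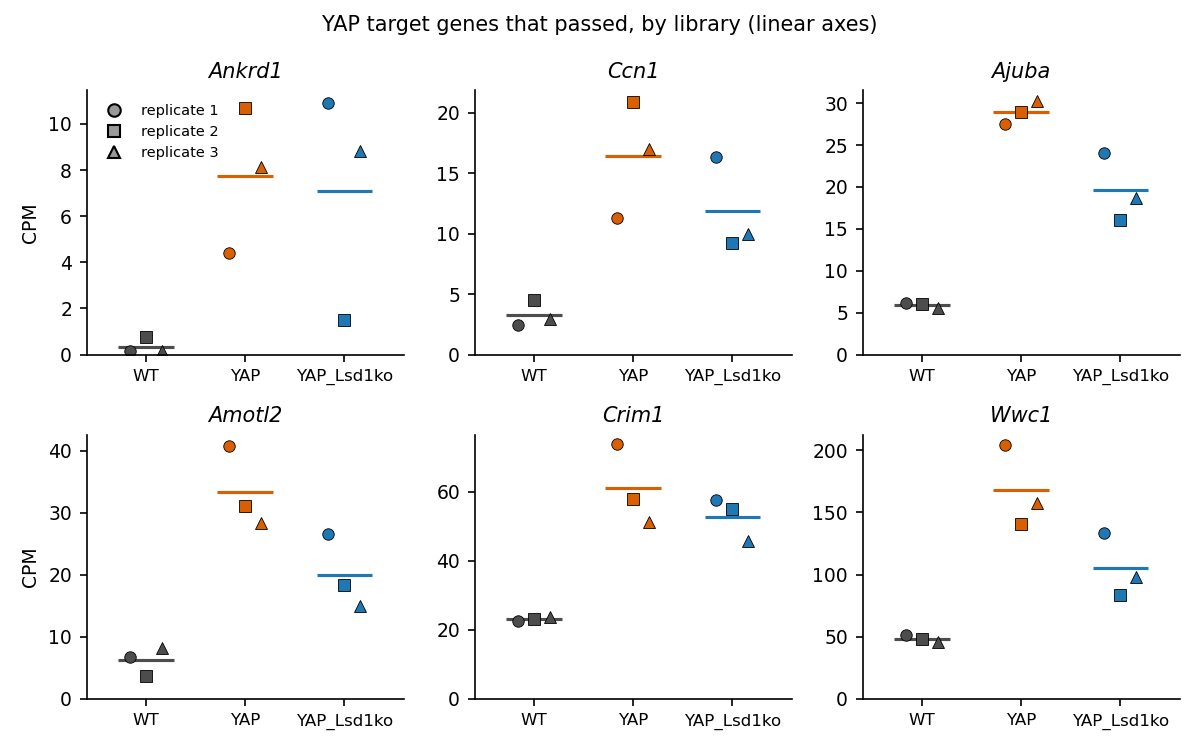
CPM of the 6 YAP target genes that passed, 1 panel per gene, each with a linear axis from 0, for the 3 libraries of each group (symbols mark replicates, bars the group means). In every panel all YAP_Lsd1ko points lie above all WT points, and for Ankrd1 the library labelled YAP_Lsd1ko replicate 2 is the lowest of its group at 1.49 CPM.

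The promoters of Ankrd1, Ajuba, Ccn1 and Amotl2 are shown because the 6 targets above rose together. Those of Crim1 and Wwc1 were searched as well but are not shown. TEAD factors, which bring YAP to DNA, bind the letters GGAATG, which read CATTCC on the opposite strand. Sequences are from RefSeq (GRCm38.p6), from 250 bases before to 50 after the annotated start, 5′ to 3′ on the gene's strand, with each match to the motif in capitals.
Ankrd1 promoter, chr19:36119795-36120094, minus strand: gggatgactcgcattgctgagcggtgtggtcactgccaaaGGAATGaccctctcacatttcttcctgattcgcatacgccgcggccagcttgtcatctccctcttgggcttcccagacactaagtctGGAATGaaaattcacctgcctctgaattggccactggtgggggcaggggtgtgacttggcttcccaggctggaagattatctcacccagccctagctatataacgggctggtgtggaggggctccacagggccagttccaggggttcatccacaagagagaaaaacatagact
Ajuba promoter, chr14:54577612-54577911, minus strand: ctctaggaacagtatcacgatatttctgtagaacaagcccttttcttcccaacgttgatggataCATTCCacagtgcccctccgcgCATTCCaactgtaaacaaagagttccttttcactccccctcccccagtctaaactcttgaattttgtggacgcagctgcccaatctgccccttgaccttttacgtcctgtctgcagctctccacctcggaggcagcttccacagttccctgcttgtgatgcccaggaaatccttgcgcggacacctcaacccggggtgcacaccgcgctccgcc
Ccn1 promoter, chr3:145649936-145650235, minus strand: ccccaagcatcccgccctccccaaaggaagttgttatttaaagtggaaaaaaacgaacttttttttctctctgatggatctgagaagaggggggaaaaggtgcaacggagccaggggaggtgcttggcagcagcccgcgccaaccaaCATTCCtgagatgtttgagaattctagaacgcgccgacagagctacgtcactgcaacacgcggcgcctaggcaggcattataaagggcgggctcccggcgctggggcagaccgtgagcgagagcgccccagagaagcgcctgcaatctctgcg
Amotl2 promoter, chr9:102717554-102717853, plus strand: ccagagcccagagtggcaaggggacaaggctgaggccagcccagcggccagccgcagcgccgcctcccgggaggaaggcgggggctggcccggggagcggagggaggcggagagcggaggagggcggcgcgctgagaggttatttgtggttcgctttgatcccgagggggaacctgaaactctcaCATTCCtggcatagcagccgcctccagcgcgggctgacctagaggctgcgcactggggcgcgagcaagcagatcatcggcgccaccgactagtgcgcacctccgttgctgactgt
Ankrd1 had 2 matches, which began 210 and 123 bases before the start site, and Ajuba had 2, at 186 and 164 bases. Ccn1 had 1 match at 103 bases, Amotl2 1 at 65 bases and Crim1 1 at 79 bases, while the window of Wwc1 held none. Thus 5 of the 6 targets that rose held the motif. Of all 24 tested targets with a promoter in the table, these 6 included, 8 held it. Over all 32851 RefSeq promoters of this length 14.7% held it on either strand. Of the genes that rose and had a promoter in the table, 20 of 87 (23.0%) held it, and of those that fell 8 of 84 (9.52%). These shares describe letters in a window and no binding was measured. The list holds genes chosen as YAP targets, so a TEAD motif among them tests nothing.

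Hippo pathway components rose in 4 of 29 members and fell in 0, against 1.12% and 0.927% of all genes. The 4 were Yap1, Ajuba, Amotl2 and Wwc1, 3 of which also stand on the list of targets. Without WT replicate 3 the Hippo count was 1, and without YAP_Lsd1ko replicate 3 it was 2. Among biliary and progenitor markers 2 of the 22 tested (of 31 listed) rose, compared with 5, 0 and 1 without YAP_Lsd1ko replicate 2, WT replicate 3 and YAP_Lsd1ko replicate 3. Over all genes 386, 20 and 30 rose in these settings. Spp1, the gene of osteopontin, was at 44.2, 97.8 and 71.2 CPM in WT and at 608, 151 and 458 CPM in YAP_Lsd1ko (5.70-fold higher, log2 SE 0.48, adjusted p = 0.0388). The groups did not overlap, although the library labelled YAP_Lsd1ko replicate 2 was only slightly above WT replicate 2. Pkd2, a polycystin of the primary cilium, rose from 19.6 ± 2.06 to 86.0 ± 13.0 CPM (SD, n = 3, edgeR adjusted p = 0.00892). Gpc3, an oncofetal proteoglycan, stood at 0.650, 8.99 and 4.05 CPM in WT and at 160.1, 8.27 and 104 CPM in YAP_Lsd1ko. The groups overlapped through the library labelled YAP_Lsd1ko replicate 2, and Gpc3 did not pass (adjusted p = 0.0789) unless that library was left out (adjusted p = 0.00727). Of the 6 oncofetal genes tested 0 passed with edgeR (1 at an unadjusted p under 0.05, 1 with DESeq2).

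Of the genes that rose, 4 had no read in any WT library. Krt4, a keratin of stratified epithelia, had 156 reads and was at least 44.3-fold higher than a floor of 3 reads over the WT group. Folh1, a glutamate carboxypeptidase, had 138 reads (at least 39.2-fold higher) and the amino acid transporter gene Slc6a20b 85 (at least 24.1-fold higher). The uncharacterised gene 2310007B03Rik had 43 reads (at least 12.2-fold higher). In CPM, Krt4 stood at 8.89, 5.62 and 5.06 in YAP_Lsd1ko and at 15.8, 24.5 and 16.3 in YAP. The floor covers counting error only.

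Col4a3, Col4a4, Col12a1 and Fads3 were among the passing genes with the largest rises or the smallest p-values. Col4a3, which encodes a collagen IV chain of specialised basement membranes, was at 3.09, 3.89 and 2.84 CPM in WT and at 58.2, 55.9 and 50.5 CPM in YAP_Lsd1ko (16.7-fold, SE 0.58, adjusted p = 0.0113). Its head-to-head neighbour Col4a4, which encodes the partner chain, rose 18.5-fold (adjusted p = 0.0133), and the fibril-associated collagen gene Col12a1 rose 9.68-fold (adjusted p = 0.00204). Not all matrix genes went this way: the laminin gene Lama3 fell from a mean of 37.5 to 12.6 CPM (adjusted p = 0.00866), and Col4a1 and Col4a2 had log2 differences of -0.43 and -0.34 that did not pass (adjusted p = 0.557 and 0.591). Col12a1 was above WT in each YAP_Lsd1ko library, the one labelled replicate 2 included. So were Col4a3 and Col4a4, but genes with the largest changes were named only where the groups did not overlap. Cd36, a fatty acid and scavenger receptor, rose from 112, 268 and 195 to 1019.8, 1168 and 1275 CPM (6.01-fold, SE 0.30, adjusted p = 0.00587). Fads3, a member of the fatty acid desaturase family, rose 17.7-fold (adjusted p = 0.0130), with 105, 21.2 and 64.5 CPM in YAP_Lsd1ko against 2.28, 5.39 and 3.11 in WT. The library labelled YAP_Lsd1ko replicate 2 had the lowest value of its group for Fads3 but not for Cd36.

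Tmeff2, a transmembrane protein with EGF-like and follistatin domains, rose 27.6-fold, Lrtm2 22.9-fold, Tinag, a tubulointerstitial nephritis antigen, 19.6-fold, and Crym, which binds thyroid hormone, 17.9-fold (edgeR adjusted p = 0.0196, 0.0466, 0.0256 and 0.0333). In all 4 the library labelled YAP_Lsd1ko replicate 2 was the lowest of its group, for example 4.47 CPM of Tmeff2 against 33.9 and 19.7 CPM. The MHC class I genes H2-Q1 and H2-Q2 rose 18.3-fold and 16.0-fold (adjusted p = 0.00351 and 0.0450). They have near-identical relatives, so uniquely placed reads may miss some of their signal.

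Cyp3a59, a cytochrome P450 of the steroid and drug metabolising Cyp3a family, was at 20.97, 28.3 and 22.6 CPM in WT and at 324, 278 and 349.6 CPM in YAP_Lsd1ko (13.2-fold, SE 0.17, adjusted p = 2.63e-05). It stood at 163, 139.6 and 165 CPM in YAP, between the other groups, and exceeded YAP in YAP_Lsd1ko (log2 fold change 1.03, adjusted p = 0.0149). Its family members are similar in sequence, which makes the unique reads of each uncertain. Pde7a, a cyclic AMP phosphodiesterase, rose 3.74-fold, the chemokine gene Ccl9 2.99-fold, Trim7, a ubiquitin ligase, 3.55-fold, and Car2, a carbonic anhydrase, 3.47-fold (adjusted p 0.00132 to 0.00224). For Ccl9 the values were 61.6, 53.9 and 56.5 CPM in WT and 175, 155 and 185 CPM in YAP_Lsd1ko. Tgfa, a ligand of the EGF receptor, rose 2.36-fold (adjusted p = 0.0180, picked once its value was known).

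For some genes YAP_Lsd1ko stood apart from both other groups. The genes described next were picked after their values were seen, and their contrasts with WT and with YAP share the YAP_Lsd1ko libraries. Pstpip2, an actin-associated adaptor of myeloid cells, was at 24.5, 22.8 and 26.1 CPM in WT, at 23.2, 22.2 and 24.9 CPM in YAP and at 39.1, 47.3 and 47.0 CPM in YAP_Lsd1ko. It rose 1.82-fold against WT (SE 0.12, adjusted p = 0.00965) and differed from YAP by 0.92 on the log2 scale (adjusted p = 0.00910). All 3 YAP_Lsd1ko libraries lay above the other 6. Fgl1, a hepatocyte-secreted fibrinogen-like protein, was at 517, 438 and 457 CPM in WT, at 527, 294 and 413 CPM in YAP and at 143, 123 and 147 CPM in YAP_Lsd1ko. It fell 3.42-fold against WT (SE 0.21, adjusted p = 0.00625) and was also below YAP (log2 fold change -1.58, adjusted p = 0.0105). The library labelled YAP_Lsd1ko replicate 2 was as low as the other YAP_Lsd1ko libraries.

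Slc51b, a subunit of the basolateral bile acid exporter, was at 0.813, 1.35 and 0.811 CPM in WT, at 1.23, 2.21 and 2.19 CPM in YAP and at 8.77, 5.62 and 7.33 CPM in YAP_Lsd1ko. It rose 7.25-fold against WT (SE 0.35, adjusted p = 0.00628) and exceeded YAP (adjusted p = 0.0193). Pfkfb3, which makes the glycolytic activator fructose-2,6-bisphosphate, rose 2.24-fold against WT (adjusted p = 0.00587), with 64.7, 55.1 and 65.2 CPM against 31.2, 25.2 and 26.3. Rnd2, a small GTPase, was lowest in WT, higher in YAP and highest in YAP_Lsd1ko, at 4.74 ± 0.961, 10.01 ± 0.604 and 19.9 ± 0.595 CPM (SD, n = 3 libraries each). The difference between YAP_Lsd1ko and WT for Rnd2 had an edgeR adjusted p of 0.00132. Acot11, an acyl-CoA thioesterase, lay on opposite sides of wild type in the other groups, with 12.03, 10.8 and 11.8 CPM in WT, only 3.19, 6.16 and 4.13 CPM in YAP, but 21.3, 55.2 and 31.8 CPM in YAP_Lsd1ko (adjusted p = 0.0493 against WT). Manf, an ER stress protein, and Cdk2ap2 rose 1.52-fold and 1.73-fold against WT (adjusted p = 0.0428 and 0.0191). Without the library labelled YAP_Lsd1ko replicate 2 Manf did not pass (adjusted p = 0.0532).

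Hepatocyte genes that stayed low were led by pericentral genes, those of the hepatocytes around the central vein. Of 34 tested pericentral genes 5 fell and 0 rose, against 0.927% and 1.12% of all genes, and the list's median log2 difference was -1.08. Lhpp, a phosphatase, was at 49.6, 37.4 and 43.9 CPM in WT and at 4.15, 10.4 and 4.63 CPM in YAP_Lsd1ko (6.96-fold lower, SE 0.38, adjusted p = 0.00965). Oat, which turns ornithine into proline and glutamate precursors and so uses the substrate of Odc1, fell from 1313, 584 and 898 to 43.5, 218 and 132 CPM (7.12-fold, SE 0.56, adjusted p = 0.0425). Gulo, which completes vitamin C synthesis in mice, fell 2.95-fold, to 276, 440.4 and 349 CPM from 1090.4, 1019 and 1035 CPM (adjusted p = 0.0328). In Lhpp, Oat and Gulo the library labelled YAP_Lsd1ko replicate 2 lay highest of its group and still below every WT library. Oat is also named among the largest falls, for which groups that do not overlap were required. Ang, a secreted ribonuclease, fell 4.69-fold and the fatty aldehyde dehydrogenase Aldh3a2 2.44-fold (adjusted p = 0.0333 and 0.0446). YAP libraries had 60.8, 138 and 88.7 CPM of Gulo, all below YAP_Lsd1ko.

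Glul, Notum and Cyp2e1, Wnt-responsive pericentral genes picked after their values were seen, did not pass. They do not stand for all Wnt-responsive genes of the list. Glul, glutamine synthetase, was at 657, 510.3 and 545 CPM in WT and at 67.2, 296 and 153 CPM in YAP_Lsd1ko (adjusted p = 0.0949, and 0.00759 without the library labelled YAP_Lsd1ko replicate 2). Notum stood at 28.2 ± 2.68 CPM in WT, 10.1 ± 1.252 CPM in YAP_Lsd1ko and 1.46 ± 1.26 CPM in YAP (SD, n = 3, edgeR adjusted p = 0.0766 against WT), and its groups did not overlap. Cyp2e1, an ethanol-metabolising P450, was at 10197, 3435 and 6304 CPM in WT and at 802, 5856 and 3072 CPM in YAP_Lsd1ko, so the groups overlapped (adjusted p = 0.512). Without the library labelled YAP_Lsd1ko replicate 2, 11 pericentral genes fell and the median was -1.39, but 0 fell without WT replicate 3 and 0 without YAP_Lsd1ko replicate 3 (edgeR, 17 at an unadjusted p under 0.05 with all libraries). Over all genes 228, 12 and 11 fell in these settings. Of 27 periportal genes tested 0 passed with edgeR (6 at an unadjusted p under 0.05, 2 with DESeq2, median -0.19). Without the library labelled YAP_Lsd1ko replicate 2, 2 periportal genes fell. In whole liver, fewer cells of a type and less RNA per cell cannot be told apart.

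Among 34 mature hepatocyte genes tested 1 fell and 0 rose, against 0.927% and 1.12% of all genes. The gene that fell was Ttr, the thyroid hormone and retinol carrier transthyretin, at 6178, 4832 and 5277 CPM in WT and at 1813, 2092 and 2114 CPM in YAP_Lsd1ko (2.71-fold lower, SE 0.19, adjusted p = 0.00866). The albumin gene Alb did not pass (adjusted p = 0.767). Genes of other secreted proteins fell, named after their values were seen. The coagulation factor gene F11 fell from 210.3 ± 52.9 to 37.0 ± 16.9 CPM, Igfbp2, a binding protein of insulin-like growth factors, from 79.9 ± 22.8 to 21.1 ± 4.98 CPM and the ribonuclease gene Rnase4 from 101.4 ± 21.7 to 19.7 ± 7.10 CPM (SD, n = 3, edgeR adjusted p = 0.0364, 0.0107 and 0.0107).

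Of 41 sterol and fatty acid synthesis genes tested 6 fell and 1, Fads3, rose, against 0.927% and 1.12% of all genes. The list median was -0.04. The number that fell was 12 without YAP_Lsd1ko replicate 2, 3 without WT replicate 3 and 3 without YAP_Lsd1ko replicate 3. Of the 6, Cyp51, Msmo1, Hmgcs1, Hsd17b7 and Insig2 belong to the sterol pathway or its control. Cyp51, the lanosterol demethylase, was at 224, 226 and 222 CPM in WT and at 110.2, 117 and 120.1 CPM in YAP_Lsd1ko (1.93-fold lower, SE 0.11, adjusted p = 0.00579). Msmo1, a later demethylating enzyme of the pathway, was at 171, 157 and 159 CPM in WT and at 59.4, 83.2 and 81.1 CPM in YAP_Lsd1ko (2.18-fold lower, SE 0.14, adjusted p = 0.00628). In both genes the spread within each group was small and the groups did not overlap. Hmgcs1, which makes the mevalonate precursor HMG-CoA, fell 2.45-fold, Insig2, an ER protein that retains the SREBP machinery, 1.99-fold and Hsd17b7 1.41-fold (adjusted p = 0.0191, 0.0127 and 0.0353). Elovl5, an elongase of polyunsaturated fatty acids, fell from 219.9, 173 and 182 to 81.2, 95.8 and 81.7 CPM (2.22-fold, SE 0.13, adjusted p = 0.00459). By contrast Fasn, fatty acid synthase, was at 461, 687 and 572 CPM in WT and at 770.1, 2279.7 and 1088 CPM in YAP_Lsd1ko, a difference that did not pass (adjusted p = 0.133).

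Bile acid genes moved in both directions. Of 32 tested, 2 rose (Abcb1a and Slc51b) and 1 fell (Cyp7b1), against 1.12% and 0.927% of all genes. Abcb1a, a multidrug efflux pump, was at 8.94, 19.3 and 13.8 CPM in WT and at 98.4, 67.3 and 92.0 CPM in YAP_Lsd1ko (6.12-fold, SE 0.29, adjusted p = 0.00564). Its paralog Abcb1b rose 6.85-fold (adjusted p = 0.0191). Cyp7b1, an oxysterol hydroxylase that is higher in males, fell from 362, 106 and 225 to 14.9, 53.8 and 40.9 CPM (6.35-fold, SE 0.54, adjusted p = 0.0453). Cyp7a1, which sets the rate of the classic bile acid pathway, was at 231 ± 38.8 CPM in WT and at 122 ± 45.1 CPM in YAP_Lsd1ko (SD, n = 3), which did not pass (edgeR adjusted p = 0.150).

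Of 34 fatty acid oxidation genes tested 2 fell and 1 rose, against 0.927% and 1.12% of all genes. Cyp4a14, a PPARα-responsive fatty acid hydroxylase, was at 6.83, 74.4 and 45.4 CPM in WT and at 0.237, 0.992 and 1.94 CPM in YAP_Lsd1ko (38.6-fold lower, SE 0.94, adjusted p = 0.0293). The ketone body enzyme gene Bdh1 fell 1.56-fold and the pantetheinase gene Vnn1 rose 3.36-fold (adjusted p = 0.0388 and 0.0245). Of 47 drug and steroid metabolism genes 1 rose and 1 fell, to be read beside the same shares of all genes. Cyp3a25 rose 1.85-fold (adjusted p = 0.0487, and 0.0536 without the library labelled YAP_Lsd1ko replicate 2), and Cyp2c55 fell 5.55-fold (adjusted p = 0.0227). Genes of amino acid catabolism fell in 1 of 43, Oat, and rose in 0, again beside 0.927% and 1.12% of all genes. Without the library labelled YAP_Lsd1ko replicate 2 they fell in 8, beside 2.05% of all genes.

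Rdh9, a retinol dehydrogenase relative, was at 8.61, 8.39 and 9.59 CPM in WT and at 0.474, 0.331 and 0.754 CPM in YAP_Lsd1ko (16.0-fold, SE 0.31, adjusted p = 0.00132). Pctp, a phosphatidylcholine transfer protein, fell 4.73-fold (adjusted p = 0.00215), Csad, a taurine synthesis enzyme, 4.41-fold (adjusted p = 0.00628) and the clock repressor gene Ciart 3.61-fold (adjusted p = 0.00587). For Csad the library labelled YAP_Lsd1ko replicate 2 was the lowest of all, at 21.3 CPM against 51.6 and 36.2 in its group and 158 to 165 in WT. Nlrp12 fell 12.2-fold, the sulfotransferase gene Sult5a1 8.01-fold and the glucuronosyltransferase gene Ugt1a9 20.6-fold (adjusted p = 0.00866, 0.0389 and 0.0191).

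Of 31 tested genes that are higher in male livers 3 fell (Serpina1e, C6 and Cyp7b1) and 0 rose, against 0.927% and 1.12% of all genes. The other 28 did not pass, and 8 of the 31 had log2 differences above 0. Serpina1e, an alpha-1-antitrypsin copy, was at 7780.0, 2181 and 4459.9 CPM in WT and at 642, 434 and 558 CPM in YAP_Lsd1ko (8.82-fold lower, adjusted p = 0.00965). Mup14, a major urinary protein gene, fell from 2533, 302 and 1222 to 5.10, 58.9 and 28.5 CPM (44.2-fold, adjusted p = 0.0487). Both have near-identical copies, so uniquely placed reads may miss much of their signal. Female-biased genes rose in 2 of 23 (Hamp2 and Slc22a27) and fell in 2 (Prlr and Cyp4a14), against 1.12% and 0.927% of all genes. Hamp2, a hepcidin copy, was at 87.8, 72.6 and 82.4 CPM in WT and at 448, 473 and 494 CPM in YAP_Lsd1ko (5.83-fold, SE 0.38, adjusted p = 0.0143).

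Polyamine and hypusination genes, the subject of the title, mostly did not pass. Of 22 tested (of 29 listed) 1 rose and 1 fell, against 1.12% and 0.927% of all genes, and the median was 0.04. Odc1, which makes putrescine from ornithine, was at 66.0, 55.6 and 67.0 CPM in WT and at 104, 128 and 112 CPM in YAP_Lsd1ko (1.82-fold, SE 0.15, adjusted p = 0.0263). It stood at 145, 103 and 128 CPM in YAP, so Odc1 stayed above WT in every library of both transgenic groups. Agmat, which makes putrescine from agmatine, was at 104, 109 and 99.2 CPM in WT and at 65.3, 60.2 and 67.3 CPM in YAP_Lsd1ko (1.61-fold lower, SE 0.12, adjusted p = 0.0233). Spermidine synthase (Srm) stood at 26.3 ± 3.87 and 33.8 ± 4.14 CPM and deoxyhypusine synthase (Dhps) at 17.0 ± 0.642 and 21.9 ± 2.04 CPM in WT and YAP_Lsd1ko (SD, n = 3), and neither passed (edgeR adjusted p = 0.335 and 0.182). Of 24 tested LSD1 and CoREST complex genes 0 passed with edgeR or DESeq2 (3 at an unadjusted p under 0.05), with a median of -0.03.

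Proliferation genes did not pass as single genes. Of 32 DNA replication genes and 32 mitosis genes 0 passed with edgeR or DESeq2 (1 of each list at an unadjusted p under 0.05), with medians of 0.37 and 0.67. Above 0 were 25 and 31 of them, beside 5432 of all 10897 genes. Members of a list share the same libraries, so these counts are not separate results. Summed mitosis genes stood at 89.4, 519 and 317 CPM in WT and at 784, 154 and 548 CPM in YAP_Lsd1ko, which overlapped. Mki67, the proliferation marker, was at 4.06, 19.9 and 11.1 CPM in WT and at 30.0, 9.26 and 29.3 CPM in YAP_Lsd1ko, so the groups overlapped. With the library labelled YAP_Lsd1ko replicate 2 left out, 1 gene of each list rose.

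Markers of other liver cells varied between libraries of the same group. Of 27 tested macrophage and Kupffer cell markers 0 passed with edgeR and all libraries (1 with DESeq2). Without the library labelled YAP_Lsd1ko replicate 2, 6 of them rose, beside 3.47% of all genes. The summed level of these markers was 989 to 1971 CPM in WT and 3799.6, 955 and 2669.7 CPM in YAP_Lsd1ko replicates 1 to 3. Clec4f, a lectin of Kupffer cells, was at 129, 210.1 and 174 CPM in WT and at 482, 122 and 353 CPM in YAP_Lsd1ko. The library labelled YAP_Lsd1ko replicate 2 thus had the least macrophage RNA of the 6 libraries. Of 28 endothelial, 27 stellate cell, 13 lymphocyte and 7 neutrophil markers tested 0 passed with edgeR (6, 6, 2 and 1 at an unadjusted p under 0.05, and 1, 2, 0 and 0 with DESeq2). Summed neutrophil markers varied within WT itself, from 10.2 to 188 CPM, against 12.6 to 58.7 CPM in YAP_Lsd1ko. This sum does not show the direction of most members. Of the 7 tested, 6 had log2 differences above 0, beside 5432 of all 10897 genes. Only Lcn2, which is also on the acute phase list, was below 0 (-2.19, edgeR adjusted p = 0.350). The acute phase gene Saa1 fell 9.59-fold (adjusted p = 0.0388, and 0.0532 without the library labelled YAP_Lsd1ko replicate 2), from 33.8, 152 and 111 to 9.84, 10.8 and 10.4 CPM. The part of these cells in the results was not tested.

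**Figure D4:**
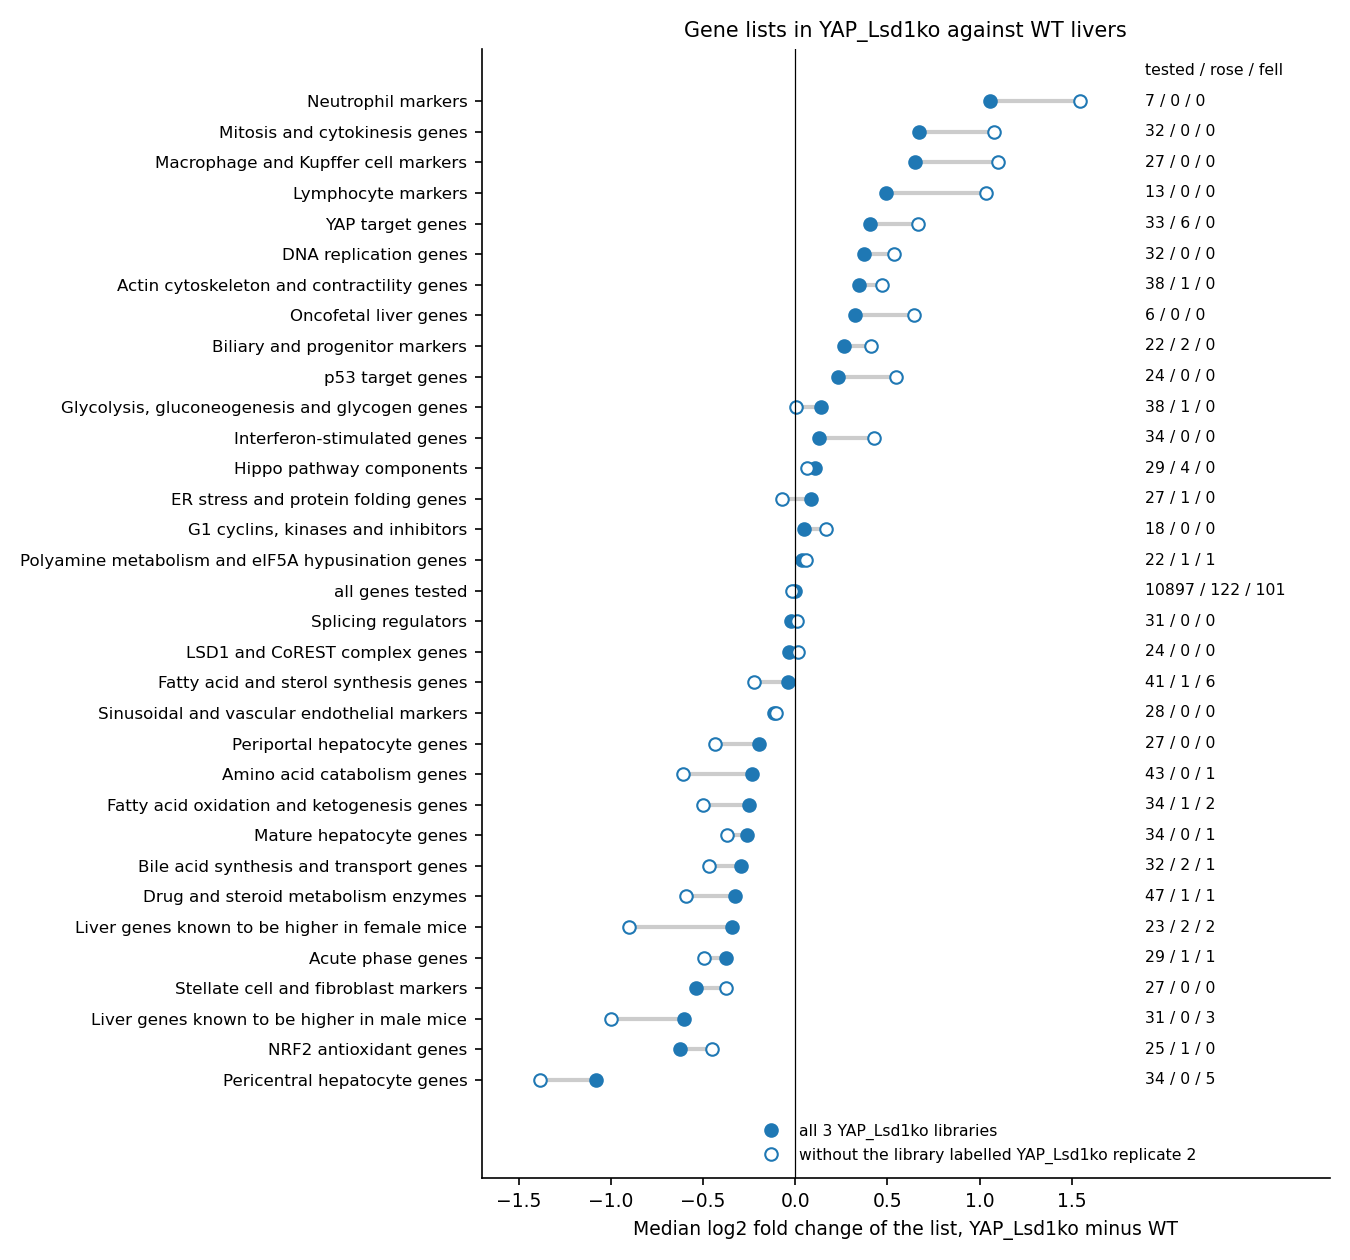
Median log2 fold change between YAP_Lsd1ko and WT for each gene list with at least 6 tested members and for all genes tested, with all libraries (filled) and without the library labelled YAP_Lsd1ko replicate 2 (open). Numbers at the right give members tested, risen and fallen with all libraries. Pericentral genes have the lowest median, -1.08, and 5 of 34 fell, whereas the neutrophil and mitosis lists have high medians with 0 members passing.

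The remaining lists had few passing members, to be read beside the 1.12% of all genes that rose and the 0.927% that fell. Glycolysis and gluconeogenesis genes rose in 1 of 38 (Pfkfb3), ER stress genes in 1 of 27 (Manf), NRF2 antioxidant genes in 1 of 25 (Osgin1, 2.18-fold, adjusted p = 0.0388) and actin and contractility genes in 1 of 38 (Myh14, a non-muscle myosin, 3.96-fold, adjusted p = 0.00799). Among 29 acute phase genes Serpina3m rose (1.79-fold, adjusted p = 0.0191) and Saa1 fell. Of the 3 erythroid markers tested the transferrin receptor gene Tfrc fell 1.66-fold (adjusted p = 0.0312). Of 34 interferon-stimulated genes, 24 targets of p53, 31 splicing regulators and 18 G1 cyclins, kinases and inhibitors 0 passed with edgeR, with 2, 3, 4 and 1 at an unadjusted p under 0.05 and 1, 1, 0 and 0 with DESeq2. Of 4 tested genes that tell the sexes apart 0 passed with either tool.

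Junction reads near Kdm1a on chromosome 4 set all 3 YAP_Lsd1ko libraries apart, the one labelled replicate 2 included. Over the whole genome, 18 annotated junctions had 0 unique reads in every WT library and at least 5 in every YAP_Lsd1ko library. That count set no condition on YAP. In the reverse direction only 2 annotated junctions had 0 unique reads in every YAP_Lsd1ko library and at least 5 in every WT and YAP library. Both lie within 10 Mb of Kdm1a, a window that holds 1.48% of the 67158 junctions with at least 5 reads in every WT and YAP library. These 2 junctions join coding exons of Rpl11, a ribosomal protein of the large subunit 0.497 Mb from Kdm1a, and of Hdac1, a histone deacetylase of the CoREST and NuRD complexes 7.01 Mb away. A junction of Rbbp4, which encodes a histone-binding subunit of complexes that hold Hdac1, 7.22 Mb away, fell from 300 to 156 unique reads. The ends of the exons that these junctions join are shown because reads must match them to be counted there. They are GENCODE M21 transcript sequence (GRCm38, minus strand, 5′ to 3′), lower case for the upstream exon and capitals for the downstream exon.
Rpl11 exon ends: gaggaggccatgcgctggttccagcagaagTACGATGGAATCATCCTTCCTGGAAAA
Hdac1 exon ends: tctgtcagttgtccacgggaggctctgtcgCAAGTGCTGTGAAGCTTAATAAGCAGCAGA
Rbbp4 exon ends: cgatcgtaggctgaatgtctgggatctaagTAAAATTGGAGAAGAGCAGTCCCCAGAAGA
These junctions span chr4:136050017-136050279 (Rpl11), chr4:129523102-129524245 (Hdac1) and chr4:129317920-129318443 (Rbbp4).

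The Rpl11 junction had 0 unique reads in each YAP_Lsd1ko library, against 214, 191 and 266 in the WT libraries and 275, 257 and 132 in those of YAP. Its multi-mapped reads, those placed at several loci, summed to 2629 in WT and 63 in YAP_Lsd1ko. The other 4 Rpl11 junctions, which had multi-mapped reads only, summed to 5875 in WT and 5939 in YAP_Lsd1ko. Rpl11 is therefore counted among the genes that fell (at least 263-fold against a floor of 3 reads, adjusted p = 0.00132) on the reads of 1 junction. The sums at its other junctions were similar in both groups, without scaling for depth. At the Hdac1 junction there were 7, 8 and 11 unique reads in WT, 18 in each YAP library and 0 in each YAP_Lsd1ko library, and Hdac1 as a gene did not pass (adjusted p = 0.206). The Rbbp4 junction went from 113, 100 and 87 unique reads in WT to 59, 47 and 50, and its multi-mapped reads from 4, 0 and 1 to 91, 100 and 110. The sum of both kinds was thus higher in each YAP_Lsd1ko library than in any WT library, without scaling for depth. In YAP the junction had 151, 120 and 146 unique and 1, 1 and 0 multi-mapped reads. What changed at these exons was not tested, and reads of the sequences themselves were not analysed here.

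**Figure D5:**
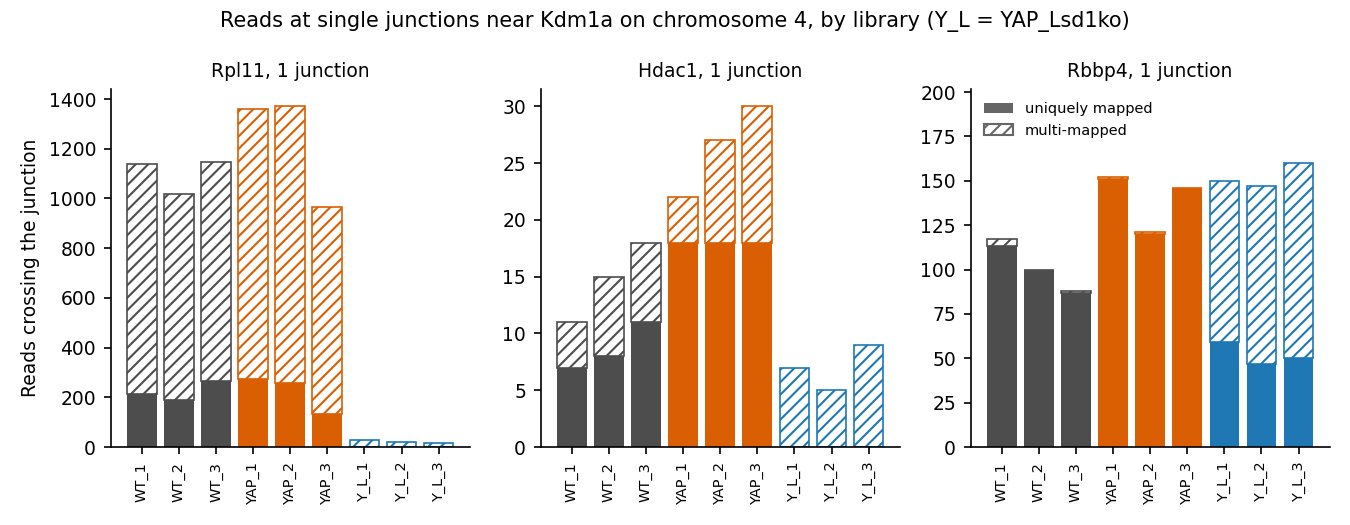
Reads (linear axes from 0, not scaled for depth) at 1 junction each of Rpl11, Hdac1 and Rbbp4, by library, split into uniquely mapped (solid) and multi-mapped (hatched). The Rpl11 and Hdac1 junctions have 0 uniquely mapped reads in all 3 YAP_Lsd1ko libraries. At the Rbbp4 junction these libraries have fewer unique and more multi-mapped reads than WT, and more reads of both kinds together.

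Cep85, a centrosomal protein gene 2.36 Mb from Kdm1a, fell from 83.1, 39.4 and 58.5 to 14.1, 14.7 and 12.2 CPM (4.42-fold, SE 0.27, adjusted p = 0.00787), with 43.6, 28.3 and 38.7 CPM in YAP. As a description, 9 of its junctions summed to 1171 reads in WT and 254 in YAP_Lsd1ko, and the other 4, the first introns of the gene, to 36 and 67. They were split by their WT reads, so the split supports nothing. Cep85 was not among the genes whose junction usage differed, but these 4 junctions did not enter that test. It therefore could not compare them with the other 9. Of 174 tested genes within 10 Mb of Kdm1a 5 passed (2.87%), compared with 2.03% of the other 10723.

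Junction usage within genes differed for 4 of 7791 genes tested (0.0513%, edgeR diffSpliceDGE, Simes p with Benjamini-Hochberg adjustment): Pqlc1, a lysosomal-type membrane protein gene (adjusted p = 0.00400), Hdac1 (adjusted p = 0.00685), the sialyltransferase gene St6gal1 (adjusted p = 0.0130) and Yap1 (adjusted p = 0.0139). Rbbp4 was next (adjusted p = 0.0680). The test used unique reads only, and multi-mapped reads remained in YAP_Lsd1ko at the Hdac1 and Rbbp4 junctions described above. At St6gal1 a junction from an alternative first exon had 0, 1 and 0 reads in YAP_Lsd1ko against 6, 16 and 17 in WT (YAP had 7, 10 and 7), while the other 8 junctions summed to 631 and 474. At Pqlc1 the junction that changed had 8, 12 and 12 reads in WT and 45, 61 and 104 in YAP_Lsd1ko, and 35, 33 and 42 in YAP. With every replicate 3, or WT replicate 3 or YAP_Lsd1ko replicate 3 alone, left out, 0 genes passed.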

How the data were processed

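Total RNA of mouse liver (3 groups of 3 libraries) was sequenced from stranded, ribosomal RNA depleted libraries, per the labels' protocols. The deposited values are counts of reads crossing each splice junction, 1 table per library in the format STAR writes, and the submitters' processing notes name bcl2fastq, FastQC, STAR, featureCounts, edgeR and mm10. The versions and the annotation the authors gave STAR are not given in the sources used here. Unique reads of annotated junctions were summed per gene over GENCODE M21 introns (GRCm38) belonging to 1 gene, so the 1331 protein-coding genes without an intron could not be measured, and a change at 1 junction can move a gene. The 9 libraries were fitted together with edgeR 4.0.16 in R 4.3.3 (TMM scaling, filterByExpr, robust quasi-likelihood), with Benjamini-Hochberg adjustment over 10897 genes and a threshold of 0.05. SE is the log2 fold change divided by the root of F, and lower bounds of fold changes use a floor of 3 reads over a group, which covers counting error only. Junction usage was tested with edgeR's diffSpliceDGE. Alternatives used DESeq2 1.42.0, other scalings and filters, a replicate block and left-out libraries. On simulated data with the same library sizes, 39.0% of 2-fold and 79.0% of 4-fold changes were recovered at the gene level. Each library was drawn independently, and the groups differed only in the changed genes. The likeness of replicate 3 to a mixture and the deviation of YAP_Lsd1ko replicate 2 were not reproduced, so these rates may not hold here. A junction simulation of 1991 genes recovered 97.5% of 4-fold changes. It gave all junctions the same fixed spread, not that of these libraries, and changed only the most-read junction of a gene. It therefore cannot tell how many real junction changes were missed. Genes named are, in each direction, the 10 passing genes with the largest change (groups not overlapping, a mean of at least 50 reads in the higher group, unnamed models passed over) and the 10 with the smallest p, up to 3 members per list and the top 5 for junction usage. Alb, Ccn1, Amotl2, Ccn2, Folh1, Slc6a20b, 2310007B03Rik, Cd36, H2-Q2, Tgfa, Pstpip2, Acot11, Cdk2ap2, Aldh3a2, Glul, Notum, Cyp2e1, F11, Igfbp2, Rnase4, Hmgcs1, Hsd17b7, Insig2, Fasn, Abcb1b, Cyp7a1, Srm, Mki67, Clec4f, Cep85, Lama3, Col4a1 and Col4a2 fall outside this rule and were picked after their values were seen. The comparison, the members and the 34 gene lists were chosen with earlier results of these data known. Python 3.11.15 with pandas 2.3.3 and matplotlib 3.10.9 made tables and figures.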

Additional observations from a re-analysis of the deposited data

Results flagged for a closer look

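Signals outside the counted reads, absent or nearly absent in WT, were read in YAP_Lsd1ko. At the Rbbp4 junction multi-mapped reads summed to 301 over the YAP_Lsd1ko libraries against 5 over WT. Among junctions that the annotation used here does not hold, 5 had at least 4 unique reads in each YAP_Lsd1ko library and 0 in WT. The one on chromosome 4 from 136085714 to 136094937, inside the 10 Mb window around Kdm1a, had 7 reads in each of the 3 YAP_Lsd1ko libraries, the one labelled replicate 2 included, a sum of 21, and 0 in each WT and YAP library. On chromosome 17, 1 junction from 35323602 at H2-Q1 summed to 27 reads and 1 from 35428383 between H2-Q6 and H2-Q7 to 17. The 1 on chromosome 3 from 23869731 at Naaladl2 summed to 12, and the 1 on chromosome 5 from 86922008 at Ugt2b1 to 57. In YAP the junctions on chromosome 17 summed to 17 and 3 reads, that at Naaladl2 to 6 and that at Ugt2b1 to 18. In the reverse direction, 1 junction with at least 4 reads in every WT and YAP library had 0 in every YAP_Lsd1ko library. It lies at Tmem234 on chromosome 4 from 129601962 to 129602194, within 10 Mb of Kdm1a, and summed to 38 reads in WT and 44 in YAP. Only this reverse set had a condition on YAP, so the counts of 5 and 1 cannot be compared. No share over all unannotated junctions is given here. The cause of these differences was not tested.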

How the results depend on the processing

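Of the 223 passing genes, all kept their sign under every alternative that tested them, except 1 of 201 with only the most-read junction of each gene. These genes were picked by passing on the same libraries, so a kept sign was likely in advance and adds little. The counts of passing genes moved more. Against 223 (122 higher, the rest lower), edgeR gave 83 (49 and 34) with only the 6 libraries compared, 273 (208 and 65) with library size alone as scaling, which shifted the all-gene median by 0.17 and the share of higher calls from 54.7% to 76.2%, 188 (106 and 82) with no filter on low counts, 194 (111 and 83) with multi-mapped reads, 113 (63 and 50) with the most-read junction and 214 (120 and 94) with DESeq2 size factors. DESeq2 gave 597 (308 and 289). Leaving out 1 library gave 32 to 614 genes, 20 to 386 higher and 11 to 228 lower. The values were 136 without WT replicate 1, 111 without WT replicate 2, 32 without WT replicate 3, 117 without YAP_Lsd1ko replicate 1, 614 without YAP_Lsd1ko replicate 2 and 41 without YAP_Lsd1ko replicate 3. Without replicate 3 of every group, an alternative chosen after seeing the data, edgeR gave 0, 0 higher and 0 lower, and DESeq2 75 (49 and 26). Kdm1a ranged from -0.69 to -0.14 with 1 library left out and was 0.0152 with its most-read junction. The Yap1 level no longer passed with only the 6 libraries (1.04, adjusted p = 0.0850) or without replicate 3 of every group (1.09, and 1.10 with DESeq2), and ranged from 0.80 to 1.15 with 1 library left out. Junction usage differed for 1 gene with the 6 libraries, 0 to 4 with 1 library left out and 0 without every replicate 3. With the replicate number as a block 89 genes passed (53 and 36), Yap1 was 0.98 (adjusted p = 0.0551) and Kdm1a -0.43. The numbers did not pair the samples, since same-numbered WT and YAP_Lsd1ko libraries had correlations of -0.651, -0.656 and 0.189 in their deviations. Of 82 named genes that passed, 82 passed with DESeq2, 26 without WT replicate 3, 28 without YAP_Lsd1ko replicate 3 and 0 with edgeR without every replicate 3; the cause was not tested. Of 68 counts of list members that rose or fell, 25 moved by over 1.5 times without WT replicate 3, 25 without YAP_Lsd1ko replicate 2, 23 without YAP_Lsd1ko replicate 3, 29 with DESeq2 and 19 with the replicate block. Genes with few junction reads, near-identical copies or no intron limit what the depth can show.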
